A study of Mus musculus with 32 samples.

Results

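The Kcnq1 and Cdkn1c domain of mouse chromosome 7 was followed at 6 genes, Cdkn1c, Kcnq1, Cd81, Osbpl5, Nap1l4 and Dhcr7, in brain RNA from reciprocal F1 crosses. The 6 genes were taken by symbol from the 18501 genes of the deposited tables. Around them lies a window of chromosome 7 whose informative bases, those at which the parental strains differ, ran from base 150224461 to base 150999168 at E15 (build mm9). All 6 genes were listed at embryonic day 15 (E15) in whole brain. The tables of the adult regions list 5 of them, without Kcnq1. The window held 211 of the 301335 genomic bases listed at E15. It held 89 of 157595 in the preoptic area (POA) and 79 of 144042 in the prefrontal cortex (PFC). Dhcr7 lies just beyond the end of the window and was followed through its transcript.

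The mice were F1 hybrids of CastEiJ (CAST), derived from wild mice, and C57BL/6J (B6), a common laboratory strain. F1i pups had a CAST mother with a B6 father, and F1r pups had the reverse parentage. Whole brain at E15 gave 1 pool of RNA per cross, each from 4 to 5 embryos. The POA, a hypothalamic area, and the medial PFC of adults of 5 weeks gave 1 male and 1 female pool per cross and region, each from 8 to 10 animals. E15 and adult pools thus differ in the tissue taken as well as in age. These cannot be told apart in any comparison by age below. The labels do not say whether the animals of the POA pools also gave PFC tissue, and p-values measure the spread between these pools. An informative read covers such a base and so shows its chromosome of origin. The maternal share is taken from the CAST reads of F1i pools and the B6 reads of F1r pools, so an effect of the parent keeps its side of 50% in both crosses and an effect of the strain changes side.

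The gene tables held 11454846 and 11908414 informative reads at E15 and 3603514 to 7702810 in the adult pools. Levels are given below as reads-per-million values (RPM), the share of all informative reads, over the bases that all 3 tables list. Listed bases all had reads in each pool of the tissue concerned, so a silent stretch is missing rather than listed at 0. Summed marker levels followed the labels. The 2 cortical excitatory markers listed in all tables reached 564 to 739 RPM in PFC against 7.03 to 11.8 in POA. The 5 preoptic and hypothalamic markers reached 3828 to 4193 RPM in POA against 666 to 728 in PFC. The 5 progenitor and immature neuron markers reached 2823 to 4202 RPM at E15 against 517 to 959 in the adults. In such tissue RNA, fewer cells of a type and less RNA per cell cannot be told apart.

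In imprinted genes the allele of a single parent is expressed. In this domain the long noncoding RNA Kcnq1ot1 starts inside an intron of Kcnq1, on the strand opposite to it, at a control region that is methylated on the maternal chromosome. It is transcribed from the paternal chromosome, where it silences neighbouring genes in cis. Cdkn1c, an inhibitor of cyclin-dependent kinases that restrains proliferation, is the best known maternally expressed gene of the domain. Kcnq1, a voltage-gated potassium channel subunit, and the flanking genes Cd81, Osbpl5, Nap1l4 and Dhcr7 have been studied for imprinting mostly in embryo and placenta.

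The bases that carried the parental signal are shown first, each in 29 bases of the mm9 reference (B6) sequence with the informative base in capitals at position 15, counted from the 5′ end. The Cdkn1c base lies in the 3′ UTR, on the minus strand of chr7:150644749-150644777. CAST differs there by T15C.
Cdkn1c base 1331: actgtgcaatgtatTgagaacactctgta
The next 4 are the most deeply read E15 bases of Kcnq1 introns downstream of the Kcnq1ot1 start, written on the minus strand in the sense of Kcnq1ot1. They lie at chr7:150427514-150427542, chr7:150427912-150427940, chr7:150396180-150396208 and chr7:150462438-150462466.
Kcnq1 intron base 150427528: ctgatgattttttaCcaactcatggattt
Kcnq1 intron base 150427926: aaacattaaaaactTaggtaagtgatcac
Kcnq1 intron base 150396194: ctgtagtagtatgaTtgtaagaaaagcaa
Kcnq1 intron base 150462452: tgtactcttgttgtCgggatctagggaaa

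At E15 Cdkn1c was read almost only from the maternal chromosome. The F1i pool gave 209 CAST and 10 B6 reads, a maternal share of 95.4% (95% Clopper-Pearson interval 91.8 to 97.8). The F1r pool gave 12 CAST and 323 B6 reads, a maternal share of 96.4% (93.8 to 98.1). Both informative bases of the gene showed it. At base 616 the reads were 125 CAST and 9 B6 in F1i and 1 CAST and 48 B6 in F1r. At base 1331, the one printed above, they were 84 CAST and 1 B6 in F1i and 11 CAST and 275 B6 in F1r. The paternal reads were not spread evenly, since F1i had 9 of its 10 at base 616 and F1r had 11 of its 12 at base 1331. The total reads of the bases also moved in opposite directions between the pools, with 134 in F1i against 49 in F1r at base 616 and 85 against 286 at base 1331. The cause was not tested. A further base in the intron of Cdkn1c, seen in the genomic table, had 9 reads, all of them maternal.

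Of the 5 members with enough reads for a test at E15, Fisher's exact test called Cdkn1c and Cd81, both maternal, against 5.70% of the 14676 genes tested. A gene was called when its adjusted p was under 0.05 and F1i and F1r leaned to the same parent. This test has counting error alone and compares these 2 pools, not the crosses. The log2 ratio of the CAST to B6 odds in F1i over those in F1r, positive for maternal excess, was 9.01 ± 0.62 (SE) for Cdkn1c, with an adjusted p of 1.22e-120. When counting error was replaced by the spread seen between adult pools, the count over all genes fell from 837 to 41. The Cdkn1c call is not read from that fit, since the gene had 1 to 5 reads per adult pool and entered through its E15 reads. The call for Cd81 did not hold there (adjusted p = 1), nor with its deepest base alone (adjusted p = 0.426).

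**Figure D1:**
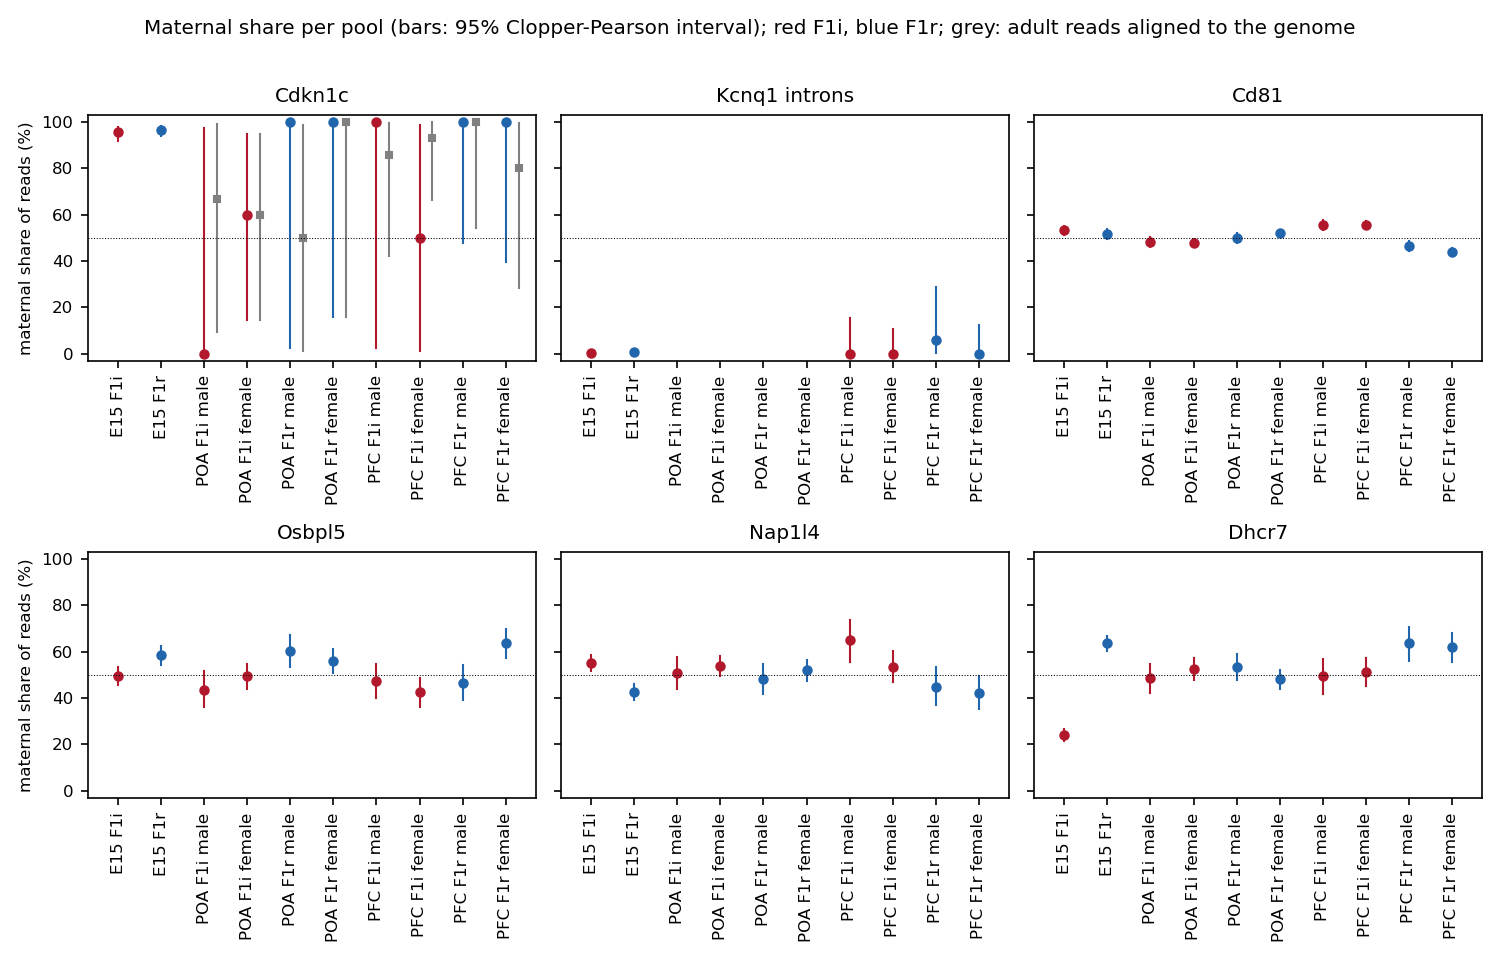
Maternal share of the informative reads (%, vertical axis) in each of the 10 pools for Cdkn1c, the Kcnq1 intron bases downstream of the Kcnq1ot1 start, Cd81, Osbpl5, Nap1l4 and Dhcr7; points are pools, bars 95% Clopper-Pearson intervals, red F1i, blue F1r, and grey squares the Cdkn1c base in reads aligned to the genome. The E15 points of Cdkn1c sit at 95.4% and 96.4% and those of the Kcnq1 intron under 1%, while Dhcr7 at E15 lies at 24.0% in F1i and 63.5% in F1r.

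The Kcnq1 introns gave reads of the opposite parent to Cdkn1c. The RefSeq promoter of Kcnq1ot1 matched the genome once and placed its start at base 150482452 of chromosome 7, minus strand. Downstream of it in the sense of Kcnq1ot1, 63 informative bases of Kcnq1 introns were listed at E15, from 0.487 to 86.3 kb away. Over these bases the F1i pool had 3 maternal and 546 paternal reads and the F1r pool 4 maternal and 488 paternal. The maternal share was thus 0.672% of 1041 reads (95% interval 0.271 to 1.38). No maternal read was seen at 56 of the 63 bases, and 35 of the 40 bases with at least 10 reads had none. The most deeply read base, 150427528, had 61 paternal reads in F1i and 24 in F1r and none from the mother. Its neighbour 150427926 had 61 and 23, again all paternal.

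Reads of 36 bases can span neighbouring informative bases. On the 54 bases that lie at least a read length apart the counts were 3 maternal against 472 paternal in F1i and 4 against 434 in F1r. Of the 63 bases, 19 had a mean of at least 10 reads per pool, and Fisher's exact test called all 19 paternal. Over the whole genome 1.96% of 142253 bases were called in this test. On the other side of the start, 2 bases annotated in a Kcnq1 intron, 150493497 and 150493502, had 5 maternal of 12 reads. They lie 5 bases apart, so that a read can cover both. At the first alone the counts were 2 maternal of 4 reads in F1i and 1 of 2 in F1r. The tables do not give the strand, so transcripts of Kcnq1ot1 and unspliced Kcnq1 cannot be separated here.

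In the adult PFC 9 bases of this stretch were listed, with 1 maternal read in 100. The pools had 22 and 33 paternal and no maternal reads in F1i male and female. In F1r the male pool had 16 paternal and 1 maternal and the female pool 28 paternal and no maternal reads. At 22 and 33 reads a count of 0 leaves maternal shares of up to 15.4% and 10.6% inside the 95% interval. Of the 9 bases 7 were also listed at E15. Over these 7 the E15 pools had 121 (F1i) and 134 (F1r) reads, or 12.3 and 13.4 RPM of the genomic table. The PFC pools had 15, 25, 14 and 22 reads, or 3.50, 4.03, 3.31 and 4.28 RPM, in the order F1i male, F1i female, F1r male, F1r female. All 4 PFC pools lay below both E15 pools. This has no test here, and the share of all bases that do so was not counted. None of these bases reached the mean of 10 reads needed for a test in PFC. The POA table lists no base of this stretch. Since a base needs a read in every pool to be listed, this gives no share for the POA.

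**Figure D2:**
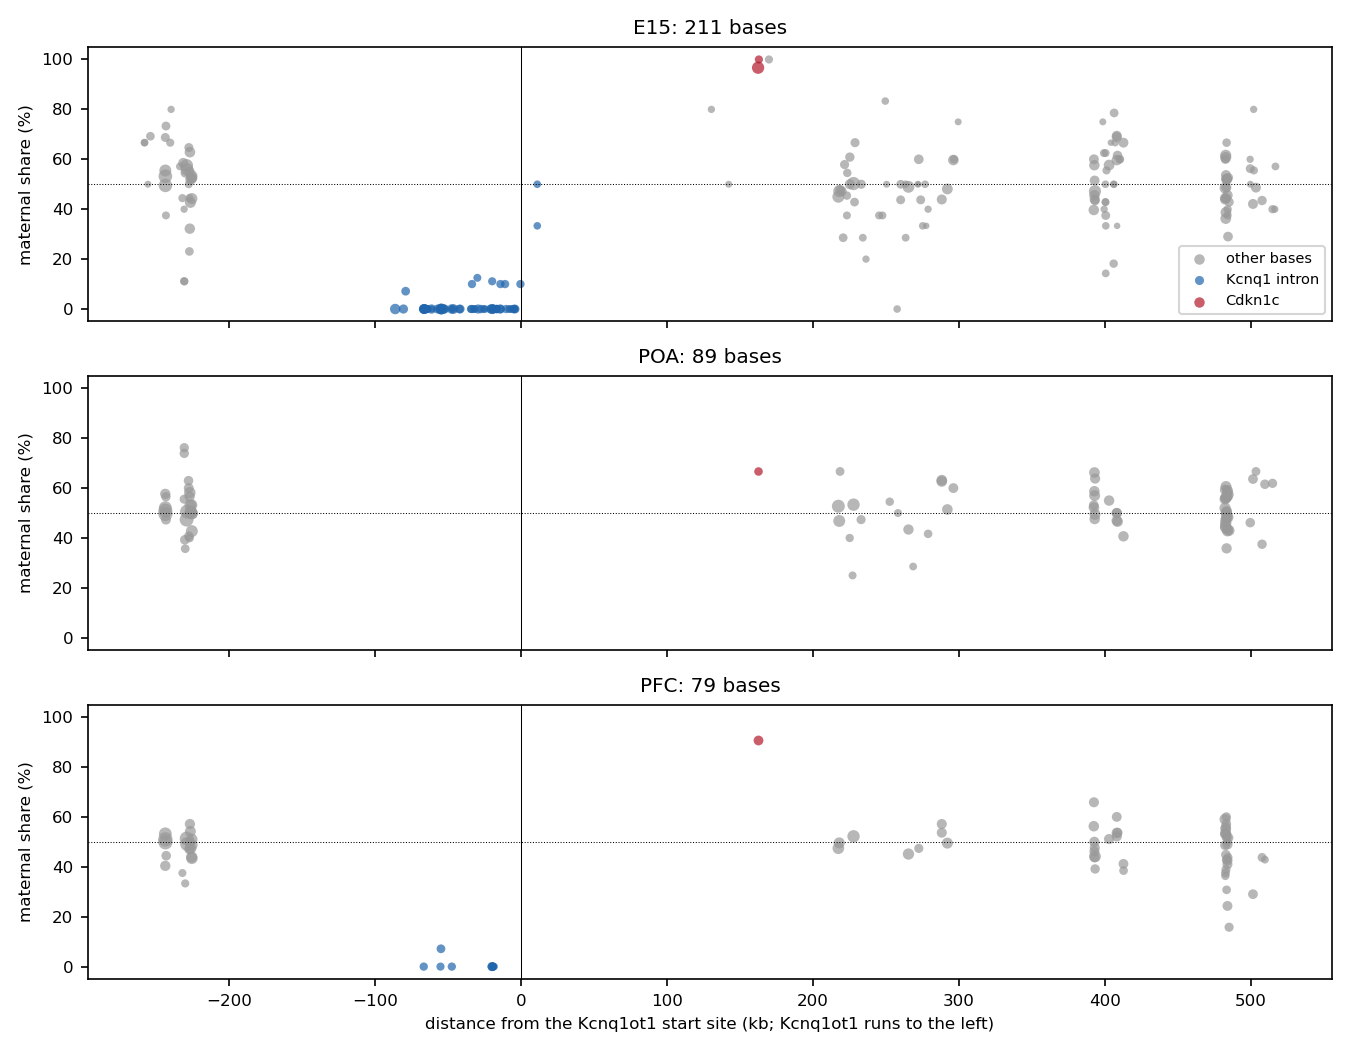
Maternal share (%, vertical axis) of each informative base of the window in E15, POA and PFC against its distance in kb from the Kcnq1ot1 start (horizontal axis; Kcnq1ot1 runs to the left), with point size growing with the logarithm of the reads; blue marks Kcnq1 introns, red Cdkn1c and grey all other bases. Blue points left of the start lie near 0% at E15 and PFC, the red Cdkn1c points lie at 96.7% and 100% at E15, and grey points scatter around 50%.

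The coding transcript of Kcnq1 was hardly read. At E15 it had a single informative base, in the 3′ UTR, with 3 maternal and no paternal reads in F1i and 1 read of each kind in F1r. No statement on its allelic balance is possible at 5 reads. The transcript record of Kcnq1ot1 itself had 3 bases and 19 reads at E15. The F1i pool had 4 CAST and 5 B6 reads and the F1r pool 7 CAST and 3 B6 reads, and the 3 bases differed among themselves. Its deepest base, 5558, had 1 maternal read of 11, whereas base 2521 had 5 of 5. These 19 reads are too few to set against the 1041 of the intron.

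In the adults the Cdkn1c signal was thin. The transcript table had 1 to 5 reads per pool. In F1i these were 1 B6 read in POA males, 3 CAST and 2 B6 in POA females, 1 CAST in PFC males and 1 of each in PFC females. In F1r they were 1, 2, 5 and 4 B6 reads in POA males, POA females, PFC males and PFC females, with no CAST read. The maternal reads were 17 of 21 in all (81.0%, interval 58.1 to 94.6). The mean CAST share was 52.5% ± 41.1 (SD, n = 4) in F1i pools and 0% in F1r pools. Cdkn1c had too few adult reads for the fit, and a two-sided exact permutation test over the pools gave p = 0.143. The smallest p that 4 against 4 pools allow is 0.0286.

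The genomic alignment of the same base gave more reads, 44 in all, and this was looked at after the transcript counts were seen. In PFC the CAST and B6 reads were 6 and 1 in F1i males, 13 and 1 in F1i females, 0 and 6 in F1r males and 1 and 4 in F1r females. Most of the added reads fell in the PFC F1i pools, with 7 and 14 reads against 1 and 2 in the transcript counts. The PFC F1r pools had 6 and 5 against 5 and 4. The cause was not tested. The maternal share was 29 of 32 reads (90.6%, interval 75.0 to 98.0). In POA the CAST and B6 reads were 2 and 1 in F1i males and 3 and 2 in F1i females. In F1r they were 1 and 1 in males and 0 and 2 in females. Of these 12 reads 8 were maternal (66.7%, interval 34.9 to 90.1). Over both regions the CAST share was 76.3% ± 15.5 (SD, n = 4) in F1i and 17.5% ± 23.6 (SD, n = 4) in F1r, with an exact permutation p of 0.0286, the smallest possible. The pools of both crosses did not overlap, but the margin rests on few reads. The lowest F1i pool, POA female, had 60% CAST of 5 reads. The highest F1r pool, POA male, had 50% of 2 reads, and the test weighs all pools alike. With 2 pools per cross in a single region the exact test cannot go below 0.333.

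The test of a change in parental bias with age could not be read for Cdkn1c. Its log2 difference, adult minus E15, was -3.90 with an SE of 16.6, because the adult pools held so few reads. None of the 5 members in that fit was called for a difference with age, against 0.0588% of 11902 genes. Cdkn1c was in it only through its E15 reads. Dhcr7 came closest by its unadjusted p (log2 1.23 ± 0.37 SE, adjusted p = 1), and it is described below by base.

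The remaining bases of the window were close to even. Without the Kcnq1 introns and Cdkn1c, maternal reads made up 51.5% of 10852 at E15, 50.5% of 18629 in POA and 50.1% of 16676 in PFC. At E15 83 bases of the window were tested, and 3 were called maternal and 19 paternal. The 3 maternal ones were the Cdkn1c 3′ UTR base and 2 bases in the 3′ UTR of Cd81. In POA none of 60 bases was called against 0.604% over the genome, and in PFC none of 38 against 0.444%. By edgeR's unadjusted p 1 base in POA and 0 in PFC were under 0.05. Requiring a mean of 20 reads left 49 tested bases at E15, of which 3 were called maternal and 4 paternal.

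Of the other genes of the window, Cars and Tssc4 had means near 50%. Cars, a cysteinyl-tRNA synthetase, had a maternal share of 50.04% ± 0.39 (SD, n = 2) at E15. Its values were 52.3% ± 5.0 (SD, n = 4) in POA and 49.7% ± 6.3 (SD, n = 4) in PFC. Tssc4, which overlaps Trpm5 so that their reads cannot be told apart, had 49.7% ± 7.3 (SD, n = 2), 50.2% ± 4.0 (SD, n = 4) and 47.6% ± 5.1 (SD, n = 4). Nadsyn1, an enzyme of NAD synthesis, had 50.3% ± 6.6 (SD, n = 2), 58.6% ± 4.7 (SD, n = 4) and 40.3% ± 9.6 (SD, n = 4), the last with 9 to 26 reads per pool. Its POA pools, at 52.9 to 63.6%, were all above 50%, and its PFC pools, at 30.8 to 50%, were all at or below it. Trpm5 had 9 maternal of 9 reads in F1i and 1 of 3 in F1r at E15. Tnfrsf22 and Tnfrsf23, decoy receptors next to Osbpl5, had 17 to 24 reads per pool at E15. Their maternal shares there were 17.6% and 70.8%, and 30.0% and 76.2%, with the crosses on opposite sides.

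Of the 30 other genes listed for this part of chromosome 7, 21 were in a table and 16 were tested at E15. The calls were H19 and Igf2, of the imprinted cluster next to this domain, where 5.70% of all genes were called. H19, a noncoding RNA, was 98.4% ± 1.6 maternal (SD, n = 2). Igf2, a growth factor, was 29.0% ± 6.9 maternal (SD, n = 2), the only paternal call of the list. In the adults Igf2 was the single call of 10 tested over both regions, where 0.404% of all genes were called. Within a region 0 of 12 were called in POA (0.396% of all genes) and 0 of 10 in PFC (0.282%). The Igf2 call was maternal: 63.6 to 83.7% in POA and 44.2 to 81.6% in PFC, at 35 to 86 reads per pool. PFC F1i female, at 44.2%, lay on the paternal side. For strain bias 5 of 10 were called, all towards B6, where 36.2% of all genes were called. For level 6 of 11 were called with age, below the 63.4% of all genes, among them Igf2 (-5.17 ± 0.28 SE) lower and the protease Ctsd (1.59 ± 0.15 SE) higher in the adults, with a median of -0.16. Between the regions 3 of 10 were called, fewer than the 55.5% of all genes, led by the synaptic scaffold Shank2, higher in PFC (1.35 ± 0.14 SE), with a median of -0.18.

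Cd81, a tetraspanin that organises membrane receptors, had the most reads of the members. Its 4 bases with a genomic position are shown because their values are given one by one, on the plus strand at chr7:150238715-150238743, chr7:150238770-150238798, chr7:150253272-150253300 and chr7:150253610-150253638. The first pair lies in the 5′ UTR and also in an intron of R74862 on the other strand, and the second pair in the 3′ UTR. CAST differs by T15C in the first 3 and by T15A in the fourth.
Cd81 base 30: cttcaaagagatagTgactctcgcgcctc
Cd81 base 85: cctacgtctcattcTccgcaacgcagttc
Cd81 base 924: tgtactgaggccctTtgcattgcaccaga
Cd81 base 1261: ctttgtagcctagcTagagggccatgccc

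At E15 Cd81 was 53.3% maternal in F1i (1420 CAST, 1246 B6 reads) and 51.7% in F1r (1127 CAST, 1206 B6 reads). The log2 value was 0.29 ± 0.08 (SE), adjusted p = 0.00590. In reads aligned to the genome the excess was seen in the 3′ UTR: base 924 was 50.6% and 63.0% maternal in F1i and F1r, and base 1261 was 61.6% and 51.8%. Both were called by Fisher's exact test (adjusted p = 0.00745 and 0.0137). The base with most reads, base 30, was on opposite sides of 50% (57.7% and 48.4%) and was not called. In the adults Cd81 showed no such call. The maternal shares were 48.2%, 47.7%, 49.98% and 51.9% in POA and 55.5%, 55.5%, 46.4% and 44.0% in PFC, in the order F1i male, F1i female, F1r male, F1r female. In PFC the crosses lie on opposite sides of 50%.

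Among the adults none of the 4 members with enough reads was called for a parental bias. The count was 0 of 4 in POA (background 0.396%), 0 of 4 in PFC (0.282%) and 0 of 4 over both regions (0.404%), by edgeR and also by DESeq2. At an unadjusted p under 0.05 Dhcr7 alone stood out, in PFC (log2 0.77 ± 0.17 SE, adjusted p = 0.961) and over both regions (0.40 ± 0.16 SE, adjusted p = 0.798). For the others the 95% intervals of the log2 value over both regions ran from -0.12 to 0.10 for Cd81, from -0.15 to 0.44 for Nap1l4 and from -0.27 to 0.58 for Osbpl5. No member was called for a difference between the regions in parental bias (0 of 4, background 0.0258%) or between the sexes (0 of 4, background 0%). In the test of sexes 489 of 11275 genes had an unadjusted p under 0.05, and no member did. In that of regions Dhcr7 did (log2 0.70 ± 0.23 SE, adjusted p = 1). DESeq2 was not run for these differences.

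Over the adult pools 3 of 4 members were called for a strain bias. Such calls were common in these crosses, at 36.2% of 11629 genes. Cd81 leaned to CAST by a log2 of 0.11 ± 0.03 (SE), adjusted p = 0.0184. Nap1l4 leaned to CAST by 0.25 ± 0.08 (SE), adjusted p = 0.0303. Osbpl5 leaned to B6, with -0.32 ± 0.11 (SE), adjusted p = 0.0462. All 3 calls were near the threshold. Osbpl5 kept its call in 2 of 12 alternatives, and of the 8 pools PFC F1r male alone could be left out without losing it (adjusted p = 0.0556 to 0.129 without any other). Nap1l4 kept it in 5 of 12. It lost the call without PFC F1i male, PFC F1r female, POA F1i female, POA F1i male or POA F1r male (adjusted p = 0.0516 to 0.0844), and with its deepest base alone the value was -0.39. Cd81 lost it without POA F1r male, PFC F1i female or PFC F1r female (adjusted p = 0.0529 to 0.0571). Dhcr7 was not called (-0.18 ± 0.08 SE, adjusted p = 0.123). It was called without POA F1r female (-0.25, adjusted p = 0.0407) and, with the opposite sign, with its deepest base alone (0.49, adjusted p = 0.0309).

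For Cd81 the strain bias differed between the adult regions. Its CAST share was 48.2%, 47.7%, 50.02% and 48.1% in the POA pools and 55.5%, 55.5%, 53.6% and 56.0% in the PFC pools, in the order F1i male, F1i female, F1r male, F1r female. Every PFC pool lay above every POA pool. The share of all genes whose CAST shares separate in this way was not counted. The log2 difference of the allelic ratio, PFC minus POA, was 0.39 ± 0.06 (SE), adjusted p = 0.0107. It was the only call among 4 members, against 5.06% of all genes. It was called in each of the 11 alternatives run, with adjusted p up to 0.0460. The bases are given one by one, and their differences were not tested against each other. At base 30 the CAST share was 52.6% ± 1.6 (SD, n = 4) in POA and 61.7% ± 0.67 (SD, n = 4) in PFC, with pools from 51.1 to 54.5% and from 61.0 to 62.6%. The test of this single base gave 0.52 ± 0.10 (SE), adjusted p = 0.0206, where 1.36% of 81292 bases were called. At base 924, in the 3′ UTR and outside R74862, the CAST share was 42.2% ± 4.6 in POA and 51.7% ± 6.2 in PFC (SD, n = 4). The test there gave 0.57 ± 0.18 (SE) and missed the threshold (adjusted p = 0.153). Base 85 (0.22 ± 0.12 SE, adjusted p = 0.490) was not called either. At base 1261 the share was 49.0% ± 0.78 in POA and 47.4% ± 2.4 in PFC (SD, n = 4), and the test gave -0.09 ± 0.12 (SE).

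The parental strains offer a reference at E15. After each strain was scaled to its total informative reads (9203410 CAST, 10874542 B6), CAST mice gave 63.4% of the level of both strains at Cd81 base 30, against a CAST share of 56.9% in the F1 pools. At base 924 the strains gave 43.0% and the F1 pools 43.3%, and at base 85 they gave 48.6% and 48.2%. At base 1261 the strains gave 47.6% and the F1 pools 54.2%, on opposite sides of 50%. These strain values come from summed libraries of each strain and have no replicate spread. Reads of R74862 that cross base 30 cannot be told apart from those of Cd81.

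**Figure D3:**
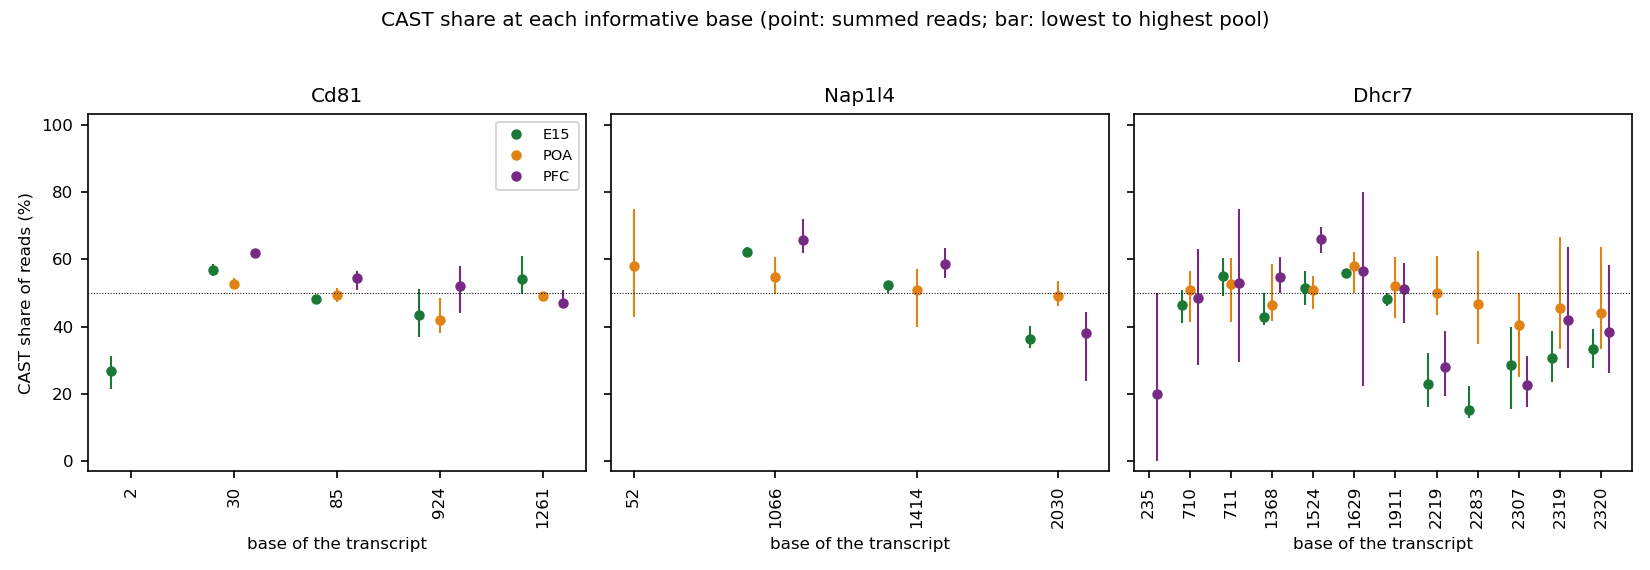
CAST share (%, vertical axis) at each informative base of the Cd81, Nap1l4 and Dhcr7 transcripts (horizontal axis, base number, not to scale) in E15 (green), POA (orange) and PFC (purple); points are summed reads and bars run from the lowest to the highest pool. At Cd81 base 30 the PFC bar, 61.0 to 62.6%, lies above the POA bar, 51.1 to 54.5%, and at Dhcr7 base 2219 the CAST share is 23.0% at E15, 50% in POA and 28.1% in PFC.

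Osbpl5, a transfer protein of the oxysterol-binding family, had 16 informative bases at E15 and 15 in each adult region. At E15 its maternal share was 49.6% in F1i and 58.4% in F1r. The log2 value of 0.47 ± 0.17 (SE) had an adjusted p of 0.0465, but the crosses lay on opposite sides of 50% and the gene was not called. The F1i interval, 45.7 to 53.5%, included 50%. Base 2935, in the 3′ UTR and the most deeply read (340 reads), was 43.8% maternal in F1i and 58.8% in F1r. In reads aligned to the genome the coding bases were 63.6% maternal of 297 reads and the 3′ UTR bases 47.8% of 646. Neighbouring bases can share reads, and none of the 14 tested was called. In POA the maternal shares were 43.6%, 49.4%, 60.5% and 56.0%, and in PFC 47.3%, 42.4%, 46.6% and 63.8%, in the order F1i male, F1i female, F1r male, F1r female. The CAST share was 44.1% ± 4.1 in POA and 44.9% ± 7.3 in PFC (SD, n = 4), without a region difference (log2 0.02, 95% interval -0.41 to 0.44).

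Nap1l4, a histone chaperone of the nucleosome assembly family, leaned to CAST at E15 in both crosses. The CAST share was 55.0% in F1i (460 CAST, 377 B6 reads) and 57.4% in F1r (503 CAST, 374 B6 reads). The adult CAST shares were 50.9%, 53.7%, 51.8% and 48.0% in POA and 65.0%, 53.5%, 55.0% and 57.7% in PFC, in the same order of pools. The regions overlapped by a narrow margin, and their difference was not called (log2 0.38 ± 0.15 SE, adjusted p = 0.1995). The lean was seen at the coding base 1066, shown here on the minus strand of chr7:150710130-150710158, where CAST differs by T15C.
Nap1l4 base 1066: tctgactttgaaatTgggcacttttttcg
There the CAST share was 62.2% of 1130 reads at E15, 54.6% of 421 in POA and 65.8% of 389 in PFC. The parental strains gave 70.4% at this base. At base 2030, in the 3′ UTR, the CAST share was 36.4%, 49.2% and 38.2%, on the other side of 50% at E15 and in PFC. The parental strains gave 47.3% there. At base 1414, also in the 3′ UTR, the CAST share was 52.3% at E15, 50.8% in POA and 58.6% in PFC, and the strains gave 50.4%.

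Dhcr7, the reductase of the last step of cholesterol synthesis, had the strongest lean to B6 of the members at E15. The CAST share was 24.0% in F1i (278 CAST, 880 B6 reads) and 36.5% in F1r (331 CAST, 577 B6 reads). Its log2 parental value of -0.86 ± 0.14 (SE) passed the test (adjusted p = 2.20e-08), but the maternal shares of 24.0% and 63.5% lie on opposite sides and the gene was not called. Among its 11 bases at E15 the lean lay at the 3′ end of the transcript. The 6 bases from 710 to 1911, of which all but base 710 could be placed in the coding sequence, had CAST shares of 43.0 to 55.8%, and the 5 bases from 2219 on had 15.4 to 33.3%. A read of 36 bases can cover neighbours among bases 2283, 2307, 2319 and 2320, and both 710 and 711. These are thus not independent counts. Of the 5 bases from 2219 on, only base 2219 could be placed on the genome. It is shown here, in the 3′ UTR on the plus strand of chr7:151033704-151033732. CAST differs there by G15C.
Dhcr7 base 2219: tatcagatgtctccGatgattgggccatc
There the CAST share was 23.0% of 427 reads at E15, 50% of 160 in POA and 28.1% of 192 in PFC. The PFC pools ran from 19.5 to 38.7% and the POA pools from 43.4 to 61.1%, without overlap. The share of all bases that separate in this way was not counted. The region difference at this base was a log2 of -1.33 ± 0.34 (SE) and missed the threshold (adjusted p = 0.0726). At base 2283 the CAST share was 15.4% of 768 reads at E15 and 46.8% of 79 in POA, and the PFC table does not list it. At base 2307 the share was 40.5% of 42 reads in POA and 22.8% of 79 in PFC. The regions lay closer at base 2319, with 45.5% of 44 reads in POA and 42.0% of 50 in PFC. At base 2320 the shares were 44.0% of 50 and 38.5% of 52. The E15 parental strains gave 16.7% CAST at base 2283 but 41.5% at base 2219. Base 2283 had 72 CAST and 489 B6 reads of the 1158 F1i reads of the gene but 46 CAST and 161 B6 of the 908 F1r reads. For the whole gene the adult CAST share was 49.9% ± 2.8 in POA and 43.9% ± 7.7 in PFC (SD, n = 4). In PFC it was 49.4% and 51.5% in the F1i pools and 36.5% and 38.2% in the F1r pools.

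Levels of Cd81, Nap1l4 and Dhcr7 were called for age or region. For age the E15 side has 1 pool per cross, so the spread comes from the adult pools and the crosses. Cdkn1c had 8.33 RPM (F1i) and 27.1 RPM (F1r) at E15, and 0.261 to 0.732 RPM in POA and 0.209 to 1.004 RPM in PFC. These levels rest on base 1331 alone, with 1 to 5 reads per adult pool. Since the gene passed the filter on low counts only through its embryonic reads, no fold and no test are given for it. The E15 pools themselves differed more than 3 times at this base. Markers of progenitors and immature neurons also fell, with 5 of 5 tested genes called, from 2823 and 4202 RPM to 517 to 959 RPM. The summed levels of 3 meningeal markers (167 and 171 RPM at E15, 14.2 to 23.0 RPM in the adults) and 2 mural markers (76.2 and 79.1 RPM, 27.7 to 56.99 RPM) were lower in every adult pool. Those of 5 endothelial markers (158 and 206 RPM, 96.6 to 177 RPM) overlapped. None of the 5 choroid plexus markers was listed in all tables. Their part in the level of Cdkn1c was not tested. Cd81 rose from 256 and 215 RPM to 484 to 577 RPM in POA and 382 to 616 RPM in PFC (log2 1.35 ± 0.17 SE, adjusted p = 9.05e-06). Nap1l4 fell from 82.0 and 83.2 RPM to 63.5 to 76.8 RPM in POA and 25.0 to 33.0 RPM in PFC (log2 -0.66 ± 0.14 SE, adjusted p = 0.000726). Leaving Cdkn1c aside, Cd81 and Nap1l4 were 2 calls among 4 members, no more than the 63.4% of 12166 genes called over all. Osbpl5 (log2 -0.01 ± 0.14 SE) and Dhcr7 (-0.06 ± 0.14 SE) were not called. With a single base, the deepest, both were called lower in the adults, at -0.70 (adjusted p = 0.0439) and -0.88 (adjusted p = 0.00465).

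Between the adult regions 2 of 4 members were called, both lower in PFC, against 55.5% of 11942 genes. Nap1l4 had 63.5, 76.8, 65.4 and 65.6 RPM in POA and 25.0, 31.6, 29.9 and 33.0 RPM in PFC, in the order F1i male, F1i female, F1r male, F1r female. The log2 difference, PFC minus POA, was -0.92 ± 0.12 (SE), adjusted p = 4.87e-05. Dhcr7 had 72.1, 63.0, 75.3 and 77.5 RPM in POA and 36.3, 37.7, 33.1 and 42.0 RPM in PFC (log2 -0.68 ± 0.12 SE, adjusted p = 0.000416). The POA and PFC values do not overlap for either gene, as for 52.8% of 11759 genes, 4304 of them lower in PFC. Osbpl5 had 48.7 to 52.1 RPM in POA and 35.0 to 40.8 RPM in PFC, again without overlap, but the TMM-scaled difference was not called (log2 -0.17 ± 0.12 SE, adjusted p = 0.230). Its most deeply read base alone gave the opposite sign (1.12, adjusted p = 0.000311). At base 2935, in the 3′ UTR, Osbpl5 had 96 reads in POA and 233 in PFC, while each of the other 14 adult bases except 3726 had fewer reads in PFC. Cd81 was not called (log2 0.19 ± 0.14 SE, adjusted p = 0.250). It was called without PFC F1r male, its lowest pool (0.35, adjusted p = 0.0123), and with its deepest base alone (0.53, adjusted p = 0.00567). Oligodendrocyte markers also differed between the tissues, over the 3 of 5 markers listed in all tables. They summed to 59.4 to 59.9 RPM at E15, 6612 to 7067 in POA and 1101 to 3538 in PFC. Astrocyte markers summed to 559 to 595, 1059 to 1158 and 673 to 715 RPM, with 4 of 4 listed. Their part in the members' levels was not tested.

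**Figure D4:**
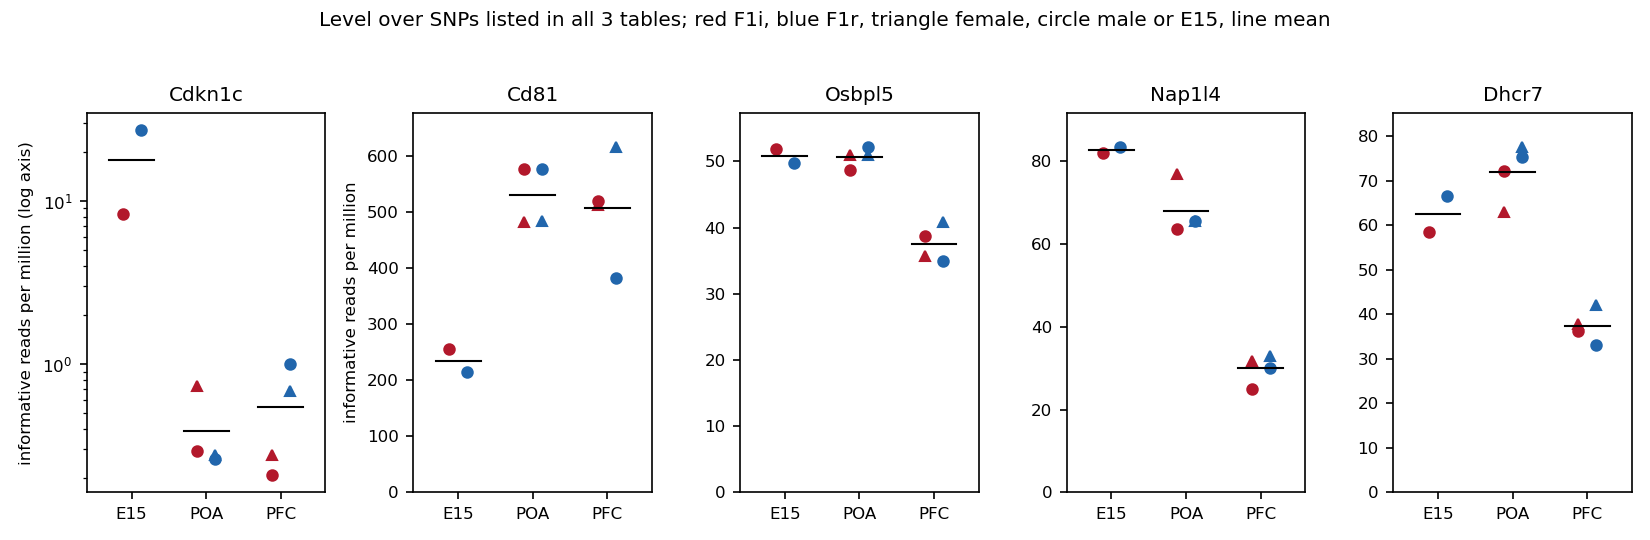
Level of 5 members (RPM over bases listed in all 3 tables, vertical axis; log axis for Cdkn1c) in E15, POA and PFC; each point is a pool, red F1i, blue F1r, triangles female, circles male or E15, and the line is the mean. Cdkn1c lies at 8.33 and 27.1 at E15 and at most 1.004 in the adults, and Nap1l4 and Dhcr7 are lower in every PFC pool than in any POA pool.

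Genes of the same families and pathways were followed beside the members. Over all genes 63.4% were called for age and 55.5% for region, and the counts below are given beside these shares. Of the cell cycle inhibitors, 4 of 8 passed the filter for age, Cdkn1c among them through its E15 reads alone. Cdkn1b (log2 -1.94 ± 0.45 SE), of the Cip/Kip family like Cdkn1c, was called lower in the adults. Cdkn2d, of the Ink4 family, was called higher (0.88 ± 0.16 SE). With 63.4% of all genes called, these calls do not set the list apart. For parental bias at E15 Cdkn1c was the 1 call of 7 tested, and Cdkn1b had a log2 of 0.10 ± 0.17 (SE).

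Among the tetraspanins, 9 of 14 were called for age, 7 higher and 2 lower in the adults, with a median log2 of 0.48. That is near the 63.4% of all genes. Tspan7 (2.03 ± 0.15 SE) and Tspan2 (1.73 ± 0.32 SE) were higher, as was Cd81, and Tspan18 was lower (-1.74 ± 0.37 SE). Between the regions 10 of 15 were called, 5 in each direction, against 55.5% of all genes, with a median of -0.07. Among the brain relatives of Kcnq1, 3 of 4 tested for age were called, 2 higher and 1 lower in the adults. Kcnq5 (1.82 ± 0.35 SE) was among the higher, and the accessory subunit Kcne1l was lower (-2.13 ± 0.30 SE). In PFC against POA 3 of 3 were called, 2 higher and 1 lower, and Kcnq5 (1.497 ± 0.25 SE) and Kcnq3 (0.85 ± 0.29 SE) were the higher ones. The medians were 0.64 for age and 0.85 for region. With so few genes tested, these counts cannot be set apart from the 63.4% and 55.5% of all genes.

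Of the oxysterol-binding family 6 of 12 were called for age, 4 higher and 2 lower, and 8 of 12 for region, 5 higher and 3 lower in PFC. Osbpl1a (2.27 ± 0.15 SE) and Osbpl9 (-0.999 ± 0.16 SE) were among the regional calls. The age count is below the 63.4% of all genes and the region count is set against 55.5%. The medians were -0.01 for age and -0.04 for region. Of the nucleosome assembly genes 3 of 4 were called for age, with Nap1l4 lower and Nap1l5 (2.98 ± 0.20 SE) and Nap1l2 (1.31 ± 0.18 SE) higher in the adults. In PFC Nap1l4 and Nap1l5 (-2.57 ± 0.14 SE) were both lower, 2 of 4 tested. The medians were 0.67 for age and -0.57 for region. The background was 63.4% of all genes for age and 55.5% for region. Nap1l5, an imprinted gene on another chromosome, was the paternal call of this family at E15.

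Of the cholesterol synthesis genes 13 of 19 were called for age, 12 of them lower in the adults, beside 63.4% of all genes, with a median log2 of -0.77 against -0.04 over all genes. The largest falls were those of Fdps (-1.58 ± 0.19 SE), a synthase of the mevalonate pathway, Cyp51 (-1.56 ± 0.13 SE), a sterol demethylase, and Hmgcs1 (-1.35 ± 0.11 SE). Ebp was the call in the other direction (0.66 ± 0.22 SE). Dhcr7 (-0.06 ± 0.14 SE) was not called. In PFC against POA 9 of 19 were called, 4 higher and 5 lower, with Dhcr7 among the lower and a median of -0.13, below the 55.5% of all genes called.

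The genes most like each member in level over the 10 pools were sought by Pearson's r of log2(RPM + 1), among about 10667 genes. As a description, Mllt3 (0.989) and Colec12 (0.988) were nearest to Cdkn1c. For Cd81 they were 1810037I17Rik (0.984) and Plekhb1 (0.980). For Osbpl5 they were Prr18 (0.991) and Lbh (0.990), for Nap1l4 AI851790 (0.989) and Zfp512 (0.989), and for Dhcr7 Pxmp2 (0.976) and BC017643 (0.975). The 10 pools share their libraries across all genes and fall into 3 groups of tissue and age, which these values mostly follow.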

How the data were processed

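Polyadenylated RNA (integrity score above 9) was fragmented, primed with random hexamers and read for 36 cycles, per the labels' protocols. Reads were aligned with Novoalign to mm9, per the submitters' processing notes. The deposited values are counts: reads with the CAST or the B6 base at each SNP, after the authors summed technical replicates, 4 per embryonic and 2 per adult pool. The 8 columns of adult parental strains could not be tied to a sample and were left out. SNPs of each gene's most deeply read transcript were summed. Transcript bases were placed on the genome where read counts matched 1 genomic base (23 of 43). The reference base was also compared, for 20 bases. Genes with a mean of at least 20 reads per pool, and bases with 10, were tested with Benjamini-Hochberg adjustment over all. E15 used a two-sided Fisher's exact test with 0.5 added per cell for log2. Adult alleles were fitted with edgeR 4.0.16 (quasi-likelihood; terms per pool, allele, and allele by cross, region or sex). Levels used TMM and filterByExpr, with cross (and sex within adults) as covariates and equal weight of both adult regions against E15. DESeq2 1.42.0, other filters, single or spaced SNPs, scalings and left-out pools were alternatives. The scripts were tested on simulated data. Intervals cover counting error only. The members and the lists (cell cycle inhibitors, KCNQ channels, tetraspanins, oxysterol-binding genes, nucleosome assembly, cholesterol synthesis, chromosome 7 neighbours, cell markers) were chosen with earlier results of these data known. Named genes were the members, neighbours in the window or called, calls of the lists and the 2 genes most like each member. Sequences are from assembly NCBIM37 (mm9) and the Kcnq1ot1 promoter from RefSeq. Some genes of the lists are counted but not reported here by name.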

Additional observations from a re-analysis of the deposited data

Results flagged for a closer look

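The level of Nap1l4 in the POA F1i female pool, 76.8 RPM, stood apart from the other 3 POA pools at 63.5 to 65.6 RPM. It was the only such pool in 16 sets of 4 pools looked at for the members, and chance gives about 1 in 20.

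The strain bias of Cd81 differed between PFC and POA by a log2 of 0.39 (edgeR, adjusted p = 0.0107), with all 4 PFC pools above all 4 POA pools in CAST share. The same difference at the single base 30 of Cd81 (chr7:150238729), which also lies in an intron of R74862, was 0.52 (edgeR, adjusted p = 0.0206). Such differences were called for 5.06% of 11629 genes and 1.36% of 81292 bases. The share of all genes whose pools separate in this way was not counted.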

How the results depend on the processing

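Over 47 results for single members, 487 of 516 alternatives kept the side of the threshold, 21 lost a call and 5 gained one. In 3 the sign changed with a call in the main or the alternative result, each with the deepest base alone. These were Osbpl5 level in PFC against POA (1.12), Nap1l4 strain bias (-0.39) and Dhcr7 strain bias (0.49). Changes of sign without a call in either result were counted among the 487. The region difference in strain bias of Nap1l4 (0.38) reached -0.64 in such an alternative, and that of Dhcr7 (-0.36) reached 0.93. The maternal call of Cdkn1c at E15 held in all 6, but the fit with the adult spread had only 1 to 5 of its reads per adult pool. Counts over all genes moved as follows, and the cause was not tested. With autosomes alone the parental calls were 133 (POA, 47 otherwise), 49 (PFC, 32) and 80 (both, 47). The strain calls, 4211, were 2468 with DESeq2 and 2176 with the deepest base. The E15 calls, 837, were 477 with the deepest base and 41 with the spread of the adult pools. With the deepest base region differences in parental and strain bias were 0 (3 otherwise) and 329 (589). At a mean of 20 reads 7 in place of 22 window bases were called at E15, with fewer bases tested. Leaving out 1 pool gave 19 to 51 calls in POA (19 without F1i female, 21 without F1i male), 10 to 29 in PFC (10 without either F1i pool), 39 to 45 over both and 3482 to 3779 for strain. It gave 1 to 8 and 171 to 371 for the region differences, 0 to 21 for sex (21 without PFC F1r female, 2 without POA F1i male), 4 to 8 for age, and 5618 to 6755 and 7357 to 7826 for levels. The adult difference of the Cdkn1c CAST share between crosses, 52.5 points, was 58.8 in genomic reads (exact permutation p = 0.0286). With 1 pool left out it was 36.7 to 70 in transcript reads. The exact permutation p was 0.143 each time except without POA F1i male (70, p = 0.0286). In genomic reads it was then 53.0 to 69.6. There the exact permutation p was 0.0571 when an F1i pool was left out and 0.0286 when an F1r pool was. Depth limits Cdkn1c and the Kcnq1 intron in adults. The main comparisons of regions were not paired. The replicate numbers mark technical replicates that the authors summed, and so give no pairs of pools. A block that pairs the POA and PFC pools of one cross and sex, which the labels do not say share animals, was added after seeing the data. Region differences in strain bias were then 1131 (589 otherwise) and in parental bias 44 (3), and it changed no call of a member.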
